A study of Mus musculus with 8 samples.

Results

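The genes described here are those that MCa-P1362, a mouse mammary tumour line, expressed in both its EpCAM+ and its EpCAM- cells, and they are described by 1 quantity: how far the difference between cultures in EpCAM+ cells departed from the difference between cultures in EpCAM- cells. For each gene the mean level in coculture was subtracted from that in monoculture within each sort fraction, on the log2(FPKM + 1) scale, which is called the culture change. The culture change in EpCAM- was then subtracted from that in EpCAM+, which is called the interaction. In the text a gene rose or fell when it was higher or lower in monoculture than in coculture and that change passed the test. FPKM are read fragments scaled by transcript length and by sequencing depth. A gene was a member when its mean reached 5 FPKM in at least 1 EpCAM+ group and in at least 1 EpCAM- group, and 7412 of the 24421 genes in the files did. All 7412 were among the 12012 genes tested, those at 1 FPKM or more in at least 2 libraries. The members nearest to the limit were Yipf6 at 5.002 FPKM, Cenpl at 5.004 FPKM and Fam109a at 5.004 FPKM in their limiting fraction, and the nearest genes left out were Ftsj1, Pcnxl4 and Zbtb24 at just under 5 FPKM. A further 1267 genes reached the limit in EpCAM+ only and 813 in EpCAM- only, and these are not members.

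MCa-P1362 comes from a spontaneous mammary tumour of a Balb/c mouse and stands for that tumour alone. It was kept in high-glucose DMEM with fetal bovine serum. Its cells were sorted on EpCAM, which joins epithelial cells to each other, and the labels name 4 groups of 2 libraries each: coculture EpCAM+, monoculture EpCAM+, coculture EpCAM- and monoculture EpCAM-. The labels give no genotype, drug or age beyond this, and they do not say that the 2 libraries of a group came from separate cultures, so the spread behind each p-value is that between 2 libraries and may be technical. After the sort, cells were frozen at once or grown and passaged before freezing, and it is not stated which course belongs to coculture and which to monoculture.

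A carcinoma line that holds both epithelial and mesenchymal cells is a place where ligands, matrix proteins and prostaglandins made by one kind of cell act on the other, and where removal of one kind changes what the other receives. Interferons are secreted proteins whose receptors activate a complex of STAT proteins and IRF9, which switches on antiviral genes and antigen presentation in nearly every cell type. Growth factor receptors of the ERBB family act through the MAP kinase cascade, whose feedback inhibitors and immediate early genes follow its activity closely. TIMPs, ADAMTS proteases, collagens and lysyl oxidase together set how the matrix between cells is built and cleaved. An interaction of 0 means that a gene changed by the same amount in both fractions, a positive one that it rose more or fell less in EpCAM+, and a negative one the reverse.

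FPKM summed to between 387489 and 414612 per library, members made up between 92.1% and 94.4% of these sums, and the depth in reads is unknown beyond a relative depth of 0.913 to 1.17. Across members the 2 libraries of a group correlated with r of 0.9969 to 0.9976, and the median SD between them was 0.0245 to 0.0326 on the log2 scale. The 8 epithelial markers summed to between 6256 and 7294 FPKM in EpCAM+ and to between 10.3 and 21.2 FPKM in EpCAM-. The 10 mesenchymal markers summed to between 11940 and 12889 FPKM in EpCAM- and to 18.6 FPKM in both monoculture EpCAM+ libraries, with 204 and 206 FPKM in the coculture EpCAM+ libraries. Relative to EpCAM- cells of the same culture, the median mesenchymal marker stood at 1.71% in both coculture EpCAM+ libraries, and at 0.128% and 0.133% in the monoculture EpCAM+ libraries. The median epithelial marker stood at 0.170% to 0.231% in the EpCAM- libraries, relative to EpCAM+. Leukocyte, endothelial, erythroid, adipocyte, muscle and neural markers were at or near 0, with Cd3e at 0 in all libraries.

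Most members differed between the fractions in their culture change, by small amounts and about as often as genes in general. The interaction passed the test in 2390 members in the positive and 2627 in the negative direction (limma, Benjamini-Hochberg adjusted p under 0.05), or 67.7% of members, where 65.2% of all genes tested passed. An interaction of at least 2-fold (1 on the log2 scale) was called in 158 members in the positive and 212 in the negative direction, or 4.99% of members beside 8.09% of all genes tested (2.43% positive and 5.66% negative). Quantile normalization moved this split to 179 and 158, and the split of all calls to 2924 and 2089. Among the 6817 members at 5 FPKM or more in all 4 groups, 103 and 137 were called at 2-fold. The other 595 (8.03%) reached the limit in only 1 culture of a fraction, so part of their difference follows from the limit. The median interaction of members was -0.01, with 90% of members between -0.78 and 0.70, and that of all genes tested was -0.08; quantile normalization moved the latter to 0.03, a shift of over 0.1, and the other scalings moved it by less. The median size of the culture change was 0.12 in EpCAM+ and 0.20 in EpCAM-. Changes of 2-fold or more were called in 18 members that rose and 66 that fell in EpCAM+, where 0.266% and 1.67% of all genes tested did so. In EpCAM- 86 rose and 112 fell by that much, beside 2.56% and 1.96% of all genes tested. Across the 7412 members the culture changes in the 2 fractions were hardly related, with a Pearson r of 0.02 and a Spearman rho of -0.22. This is a description across genes, which share the 8 libraries and are not independent replicates.

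**Figure D1:**
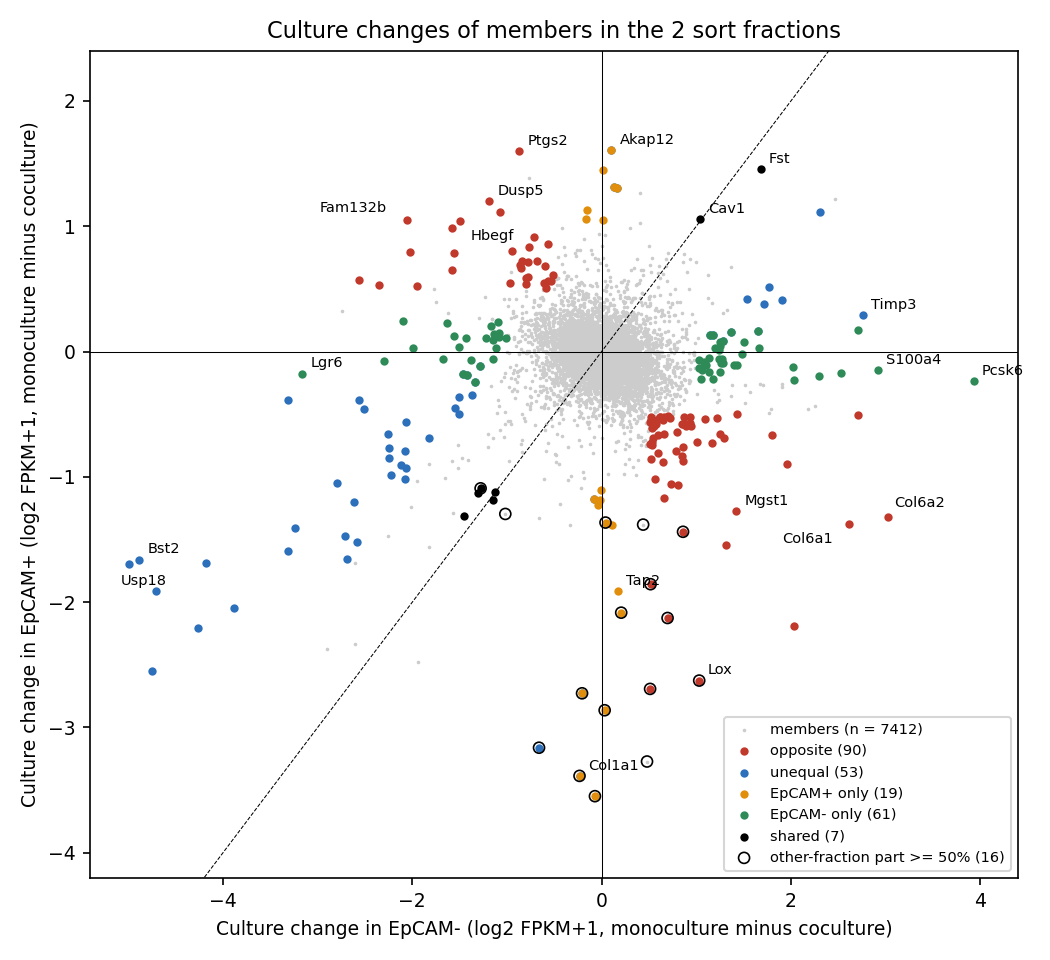
Culture change (monoculture minus coculture, log2(FPKM + 1)) of the 7412 members in EpCAM+ (vertical axis) against EpCAM- (horizontal axis), 1 point per gene, with a dashed line where both are equal. Opposite members (90) fill the upper left and lower right, interferon genes such as Usp18 and Bst2 lie far to the lower left above the line, and the 16 ringed genes are those for which EpCAM- cells at the marker share would give 50% or more of the coculture EpCAM+ level.

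Opposite culture changes, called in both fractions with at least 0.5 in each and a called interaction, were found in 90 members, or 1.21%, where 1.52% of all genes tested met the same rule. Of these, 31 rose in monoculture in EpCAM+ and fell in EpCAM-, with median changes of 0.69 and -0.85, and 59 fell in EpCAM+ and rose in EpCAM-, with medians of -0.67 and 0.80. At 2-fold in each fraction, 4 and 6 members were opposite (0.135% of members beside 0.133% of all genes tested). With 5 FPKM or more in all 4 groups, 19 and 30 members remained in the opposite class. The values of the 2 cultures did not overlap in either fraction for any of the 90, nor for 5017 of all 7412 members. The calls and size required of the 90 make overlap unlikely.

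Members that rose in EpCAM+ monoculture and fell in EpCAM- monoculture included an EGF receptor ligand, the receptor itself and a MAP kinase phosphatase. On the list of growth factor ligands and receptors the interaction was positive in 8 and negative in 5 of 14 members. It was positive in 26.0% and negative in 39.2% of all genes tested. Hbegf, the heparin-binding EGF-like growth factor, was at 96.0 and 97.3 FPKM in coculture EpCAM+, 201 and 199 in monoculture EpCAM+, 40.9 and 42.1 in coculture EpCAM- and 13.9 and 14.3 in monoculture EpCAM-. The monoculture EpCAM+ libraries were thus the highest and the monoculture EpCAM- libraries the lowest, and the cultures did not overlap in either fraction. Hbegf rose by 1.04 (SE 0.025) in EpCAM+ and changed by -1.49 (SE 0.025) in EpCAM-, an interaction of 2.53 (SE 0.035) with an adjusted p of 3.89e-09. Egfr, one of its receptors, was at 26.4 and 26.4 FPKM in coculture EpCAM+, 35.2 and 35.8 in monoculture EpCAM+, 18.3 and 17.9 in coculture EpCAM- and 8.26 and 8.45 in monoculture EpCAM-. It changed in the same directions, by 0.42 and -1.03, with an interaction of 1.45 (SE 0.040) and an adjusted p of 1.27e-07, short of the size set for the opposite class in EpCAM+. Erbb2, a partner receptor without a ligand of its own, was at 15.1 and 15.8 FPKM in coculture EpCAM+, 14.3 and 14.3 in monoculture EpCAM+, 8.44 and 8.72 in coculture EpCAM- and 9.58 and 9.83 in monoculture EpCAM-. Its interaction was -0.26 (SE 0.052), and that call was lost with quantile normalization, at -0.13 with an adjusted p of 0.0755.

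Dusp5, a nuclear phosphatase that inactivates ERK, was at 16.6 and 16 FPKM in coculture EpCAM+, 39.2 and 38.2 in monoculture EpCAM+, 26.5 and 27.3 in coculture EpCAM- and 11.9 and 10.6 in monoculture EpCAM-. Its culture changes were nearly mirror images, 1.2 (SE 0.052) in EpCAM+ and -1.19 (SE 0.052) in EpCAM-, and its interaction was 2.39 (SE 0.074, adjusted p 2.01e-07). Rgs16, an inhibitor of G protein signalling, was at 9.56 and 9.03 FPKM in coculture EpCAM+, 21.2 and 21.4 in monoculture EpCAM+, 66.4 and 69.3 in coculture EpCAM- and 31.7 and 31.8 in monoculture EpCAM-. It mirrored Dusp5, with changes of 1.11 and -1.07 and an interaction of 2.18 (SE 0.049, adjusted p 4.76e-08). In coculture both genes were higher in EpCAM- than in EpCAM+; in monoculture Dusp5 was higher in EpCAM+, whereas Rgs16 was still higher in EpCAM-. Myc, the growth-promoting transcription factor, was at 27.4 and 27.6 FPKM in coculture EpCAM+, 48.6 and 40.3 in monoculture EpCAM+, 43.7 and 35.8 in coculture EpCAM- and 21.7 and 21.2 in monoculture EpCAM-, and its replicates lay further apart than those of the genes above. Its cultures did not overlap in either fraction, and the interaction was 1.52 (SE 0.14) with an adjusted p of 5.22e-05. Fosl1, the AP-1 subunit Fra-1, rose by 1.06 in EpCAM+ with a change of -0.17 in EpCAM-, too little for the opposite class.

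Secreted and surface factors formed the next group. Fam132b, which encodes the iron hormone erythroferrone, was at 239.9 and 236 FPKM in coculture EpCAM+, 489.5 and 499 in monoculture EpCAM+, 16.1 and 16 in coculture EpCAM- and 3.06 and 3.16 in monoculture EpCAM-. It was by far highest in monoculture EpCAM+ and lowest in monoculture EpCAM-, with changes of 1.05 (SE 0.023) and -2.05 (SE 0.023) and an interaction of 3.10 (SE 0.033, adjusted p 1.75e-09). Inhba, the beta A subunit of activins and inhibin A, was at 303 and 309 FPKM in coculture EpCAM+, 529 and 525 in monoculture EpCAM+, 336 and 339 in coculture EpCAM- and 112 and 116 in monoculture EpCAM-. The fractions were alike in coculture and far apart in monoculture, and the interaction was 2.34 (SE 0.030, adjusted p 3.13e-09). Ptgs2, the inducible cyclooxygenase that starts prostaglandin synthesis, was at 29.0 and 28.5 FPKM in coculture EpCAM+, 90.0 and 88.4 in monoculture EpCAM+, 69.8 and 70.0 in coculture EpCAM- and 38.2 and 37.4 in monoculture EpCAM-. Ptgs2 had the largest rise in EpCAM+ among the 31, at 1.60, beside a change of -0.87 in EpCAM-, and the higher fraction changed from EpCAM- in coculture to EpCAM+ in monoculture. Has2, which makes hyaluronan, was at 56.6 and 56.9 FPKM in coculture EpCAM+, 114 and 112 in monoculture EpCAM+, 49.2 and 48.6 in coculture EpCAM- and 15.5 and 15.8 in monoculture EpCAM-. It too was higher in EpCAM+ by a margin that grew in monoculture, with an interaction of 2.56 (SE 0.032, adjusted p 2.76e-09).

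Efnb1, a membrane ligand of Eph receptors, was at 4.73 and 4.50 FPKM in coculture EpCAM+, 8.72 and 8.88 in monoculture EpCAM+, 20.6 and 19.9 in coculture EpCAM- and 10.3 and 9.85 in monoculture EpCAM-. It was higher in EpCAM- in both cultures, and the distance narrowed in monoculture, with an interaction of 1.75 (SE 0.057, adjusted p 2.59e-07). Ptprn, a transmembrane protein of secretory granules, was at 12.4 and 12.3 FPKM in coculture EpCAM+, 22.3 and 21.9 in monoculture EpCAM+, 55.0 and 55.9 in coculture EpCAM- and 13 and 12.8 in monoculture EpCAM-. Its change in EpCAM-, -2.02, was close to that of Fam132b, against a rise of 0.79 in EpCAM+, and the fractions crossed. The interaction was 2.81 (SE 0.039, adjusted p 3.89e-09). Tnfaip3, the A20 inhibitor of NF-kB signalling, rose by 0.65 in EpCAM+ and fell in EpCAM-, from 8.62 and 9.70 to 2.37 and 2.42 FPKM, with an interaction of 2.23 (SE 0.073). Pmaip1, the p53 target NOXA that promotes apoptosis, was similar: 0.52 in EpCAM+, -1.95 in EpCAM- and an interaction of 2.47 (SE 0.051). Timp1, an inhibitor of metalloproteinases, rose from 46.6 and 50.1 to 73.9 and 73.4 FPKM in EpCAM+ and fell from 324 and 316 to 189 and 183 FPKM in EpCAM-, with an interaction of 1.38 (SE 0.050, adjusted p 3.89e-07). Timp2 and Timp3, described further on, had interactions of the opposite sign. Of the 31 members, 4 were small nucleolar RNAs, whose reads lie inside introns of host genes and which the authors' counting may not separate from them.

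**Figure D2:**
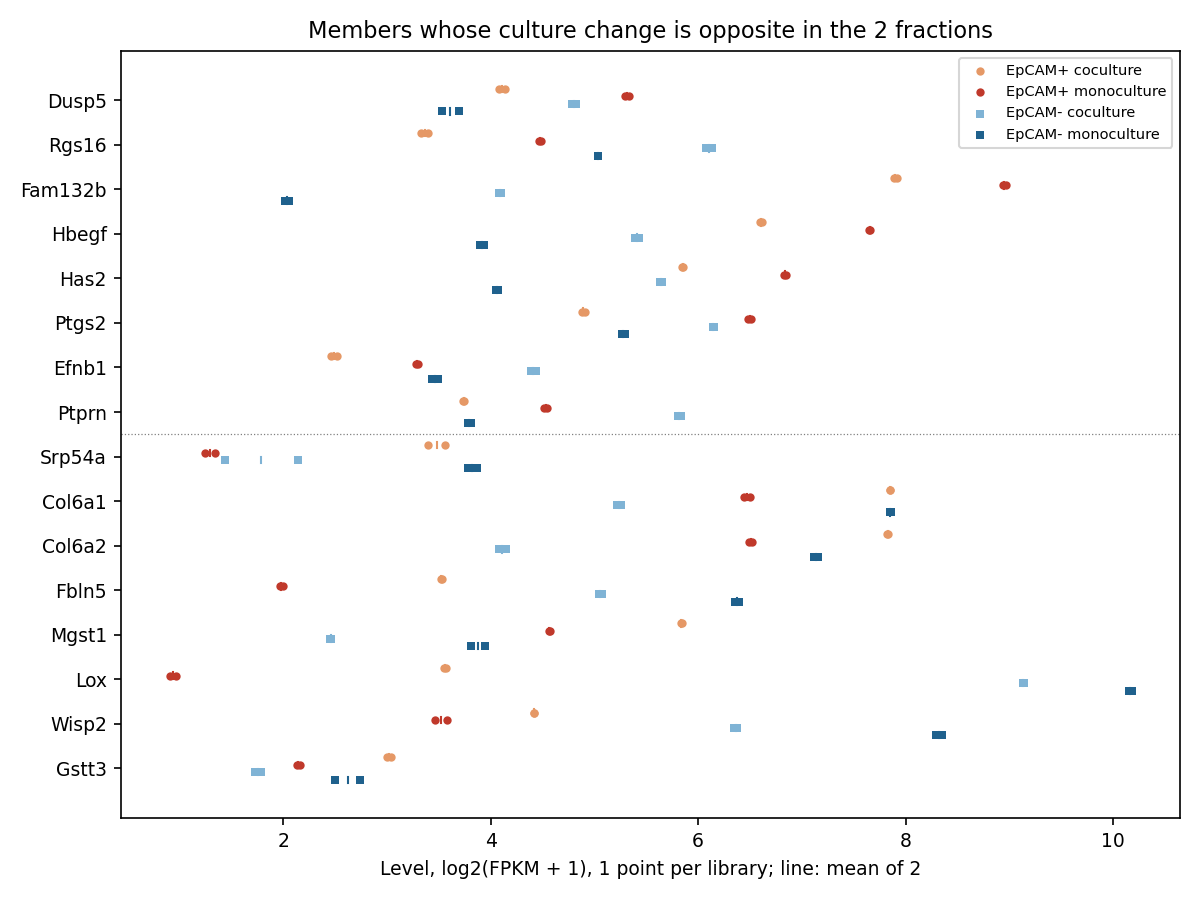
Levels of the 16 named opposite members as log2(FPKM + 1), 1 point per library and a line at the mean of the 2, with circles for EpCAM+ and squares for EpCAM-. Above the dotted line the dark red circles lie right of the orange ones and the dark blue squares left of the light blue ones; below it the order is the reverse in each gene.

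The strongest opposite change in the other direction was that of collagen VI, a beaded-filament collagen of the matrix around cells. Col6a1 was at 229.5 and 229 FPKM in coculture EpCAM+, 86.1 and 89.6 in monoculture EpCAM+, 36.3 and 37.2 in coculture EpCAM- and 229 and 231 in monoculture EpCAM-. Col6a2, which encodes its partner chain, was at 225 and 226 FPKM in coculture EpCAM+, 89.0 and 90.8 in monoculture EpCAM+, 16.7 and 15.9 in coculture EpCAM- and 138 and 141 in monoculture EpCAM-. In coculture both chains were high in EpCAM+ and low in EpCAM-, and in monoculture EpCAM- had the higher level of both; the cultures did not overlap in either fraction. Col6a1 changed by -1.37 (SE 0.025) in EpCAM+ and 2.61 (SE 0.025) in EpCAM-, an interaction of -3.99 (SE 0.035, adjusted p 7.76e-10). Col6a2 changed by -1.32 (SE 0.027) and 3.02 (SE 0.027), an interaction of -4.34 (SE 0.038, adjusted p 7.76e-10), the most negative of all 7412 members. The 2 genes are neighbours on the minus strand of mm10, at chr10:76595762-76623630 for Col6a2 and chr10:76708792-76726168 for Col6a1, per the GENCODE M21 annotation. The EpCAM- part of their coculture EpCAM+ level, taken from the marker share, was 0.274% for Col6a1 and 0.123% for Col6a2, and with that share subtracted the interactions were -4.01 and -4.38.

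Other matrix genes moved the same way. Fbln5, fibulin 5, which organises elastic fibres, was at 10.6 and 10.5 FPKM in coculture EpCAM+, 2.99 and 2.92 in monoculture EpCAM+, 32.0 and 32.6 in coculture EpCAM- and 83.0 and 81.1 in monoculture EpCAM-. Wisp2, a secreted CCN family protein and Wnt target, was at 20.4 and 20.4 FPKM in coculture EpCAM+, 10.0 and 10.9 in monoculture EpCAM+, 82.1 and 80.4 in coculture EpCAM- and 325 and 313 in monoculture EpCAM-. Unlike collagen VI, both were higher in EpCAM- in either culture, and the distance widened in monoculture, with interactions of -2.86 (SE 0.042, adjusted p 5.26e-09) and -2.86 (SE 0.056, adjusted p 2.16e-08). Lox, lysyl oxidase, which cross-links collagen, was at 10.8 and 10.8 FPKM in coculture EpCAM+, 0.874 and 0.951 in monoculture EpCAM+, 564 and 558 in coculture EpCAM- and 1137 and 1157 in monoculture EpCAM-. EpCAM- cells at the marker share would give 88.7% of its coculture EpCAM+ level, and subtraction of that share took its interaction from -3.66 to -2.18. Acta2, smooth muscle actin, and Tagln, transgelin, also fell in EpCAM+ (-2.69 and -1.44) and rose in EpCAM- (0.51 and 0.86), and for them this part was 98.6% and 77.2%. With the share subtracted the interaction of Acta2 was -0.55 and no longer passed the test (adjusted p 0.183). Acta2 is itself a marker that sets the share, so most of this loss follows by construction. Pdpn, podoplanin, with a part of only 4.61%, changed by -0.76 and 0.47. For these genes fewer cells of a type and less RNA per cell cannot be told apart.

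Mgst1, a membrane glutathione S-transferase, was at 56.4 and 56.0 FPKM in coculture EpCAM+, 22.8 and 22.6 in monoculture EpCAM+, 4.50 and 4.48 in coculture EpCAM- and 14.5 and 13 in monoculture EpCAM-. It fell by 1.27 on the log2 scale in EpCAM+ and rose by 1.42 (SE 0.045) in EpCAM-, so the fractions drew together, an interaction of -2.70 (SE 0.064, adjusted p 6.18e-08). Gstt3, another glutathione S-transferase, was at 7.02 and 7.25 FPKM in coculture EpCAM+, 3.46 and 3.40 in monoculture EpCAM+, 2.45 and 2.32 in coculture EpCAM- and 5.70 and 4.65 in monoculture EpCAM-, with the lower replicate of monoculture EpCAM- still above both coculture libraries. Its interaction was -1.74 (SE 0.11, adjusted p 5.87e-06). Aldh3b1, an aldehyde dehydrogenase, changed by -0.76 and 0.86. Srp54a, a signal recognition particle subunit, was at 10.8 and 9.55 FPKM in coculture EpCAM+, 1.37 and 1.54 in monoculture EpCAM+, 3.41 and 1.71 in coculture EpCAM- and 12.7 and 13.6 in monoculture EpCAM-. Its groups did not overlap within a fraction, but its near-identical copies Srp54b and Srp54c, both members, had interactions of only 0.13 and 0.17. The 3 lie in a row on chromosome 12 (chr12:55080262-55115367 for Srp54a), and how reads were divided among them is not given in the sources used here, so the value of Srp54a is uncertain.

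Vdr, the vitamin D receptor, was at 6.53 and 6.67 FPKM in coculture EpCAM+, 3.72 and 3.72 in monoculture EpCAM+, 1.45 and 1.73 in coculture EpCAM- and 4.99 and 5.70 in monoculture EpCAM-. It was the higher in EpCAM+ in coculture and in EpCAM- in monoculture, with an interaction of -1.98 (SE 0.10, adjusted p 1.99e-06). Nr4a1, an immediate early nuclear receptor, fell from 5.03 and 5.32 to 2.67 and 2.81 FPKM in EpCAM+ and rose from 4.07 and 4.57 to 9.62 and 9.75 FPKM in EpCAM-. Klf4, a Krüppel-like factor, fell from 12.6 and 11.4 to 5.42 and 5.42 FPKM in EpCAM+ and rose from 29.3 and 28.7 to 43.8 and 42.8 FPKM in EpCAM-. The immediate early list thus held opposite members of both kinds, Myc and Dusp5 in one direction and Nr4a1 and Klf4 in the other. Fzd7, a Wnt receptor, changed by -0.64 in EpCAM+ and 0.80 in EpCAM- with an interaction of -1.44 (SE 0.049). Thra, a thyroid hormone receptor, and Rxra, the shared retinoid partner receptor, had the same signs, at -0.40 and 1.21 and at -0.26 and 0.60. Rarb, a retinoic acid receptor, fell in both, with changes of -0.36 and -1.51, so its interaction was positive, 1.15 (SE 0.065).

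Interferon-stimulated genes moved in the same direction in both fractions by unequal amounts. Of 41 listed genes 20 were members, and all 20 fell in EpCAM+ monoculture; 19 fell and 1 rose in EpCAM- monoculture. Over all genes tested 34.9% fell in EpCAM+ and 30.3% fell in EpCAM-. The median change of the 20 was -1.58 in EpCAM+ and -2.60 in EpCAM-, beside medians of -0.06 and 0.00 over all genes tested. The interaction was positive in 18 and negative in 1, with 12 past 2-fold in the positive direction. The median interaction was 1.17, and between 1.17 and 1.28 under the scalings tried. Low values understate the falls in EpCAM-, because the log2(FPKM + 1) scale flattens near 0. Usp18, Ifi44, Oas1a and Isg15 were under 1 FPKM in monoculture EpCAM- and reached the member limit in that fraction through coculture only. Part of such falls in EpCAM- follows from the limit.

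Usp18, the protease that removes ISG15 and restrains interferon receptor signalling, was at 32.0 and 32.0 FPKM in coculture EpCAM+, 9.02 and 9.29 in monoculture EpCAM+, 41.1 and 42.1 in coculture EpCAM- and 0.334 and 0.335 in monoculture EpCAM-. Bst2, tetherin, which holds budding virus at the membrane, was at 398 and 395 FPKM in coculture EpCAM+, 123 and 126 in monoculture EpCAM+, 329.6 and 338 in coculture EpCAM- and 10.5 and 10.1 in monoculture EpCAM-. In coculture both genes were about as high in EpCAM- as in EpCAM+, and in monoculture both EpCAM- libraries were the lowest by far. Usp18 fell in both, with changes of -1.70 in EpCAM+ and -5.0 in EpCAM- and an interaction of 3.30 (SE 0.048, adjusted p 5.26e-09), and Bst2 likewise, with changes of -1.66 and -4.89 and an interaction of 3.23 (SE 0.036, adjusted p 1.75e-09). Ifi44, a protein induced by interferon, was at 33.8 and 34.1 FPKM in coculture EpCAM+, 8.70 and 7.90 in monoculture EpCAM+, 34.7 and 35.7 in coculture EpCAM- and 0.327 and 0.447 in monoculture EpCAM-. Oas1a, an antiviral oligoadenylate synthetase, was at 16.1 and 17.5 FPKM in coculture EpCAM+, 4.44 and 4.60 in monoculture EpCAM+, 21.3 and 19.8 in coculture EpCAM- and 0.173 and 0.204 in monoculture EpCAM-. They repeated the order of Usp18 and Bst2, with interactions of 2.80 (SE 0.080) and 2.49 (SE 0.079). With a pseudocount of 0.1 the interaction of Oas1a was 4.30, and Oas1a has close copies in its gene cluster, so its own level is uncertain.

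Isg15, the ubiquitin-like modifier, was at 127 and 129 FPKM in coculture EpCAM+, 23.5 and 25.9 in monoculture EpCAM+, 6.24 and 6.54 in coculture EpCAM- and 0.238 and 0.186 in monoculture EpCAM-. It fell in both fractions, with changes of -2.33 and -2.61, and its interaction of 0.28 (SE 0.071, adjusted p 0.00993) depended on the pseudocount, reaching 0.92 with 0.5 and 2.01 with 0.1. Isg15 was low in EpCAM- already in coculture, unlike Usp18 and Bst2. Stat2 and Irf9, parts of the complex that interferon receptors activate, fell in both fractions, with changes of -1.29 and -1.47 in EpCAM+ and of -1.57 and -2.26 in EpCAM-. Irf7, the factor that amplifies interferon production, was the member of the list with the largest fall in EpCAM+, a change of -2.55, beside -4.75 in EpCAM-. Ifi27, a mitochondrial interferon-induced protein, was the exception: it fell by 1.39 on the log2 scale in EpCAM+ and changed by 0.11 in EpCAM-. Stat2, Irf9, Irf7 and Ifi27 lay outside the naming rule and were chosen after their values were seen.

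**Figure D3:**
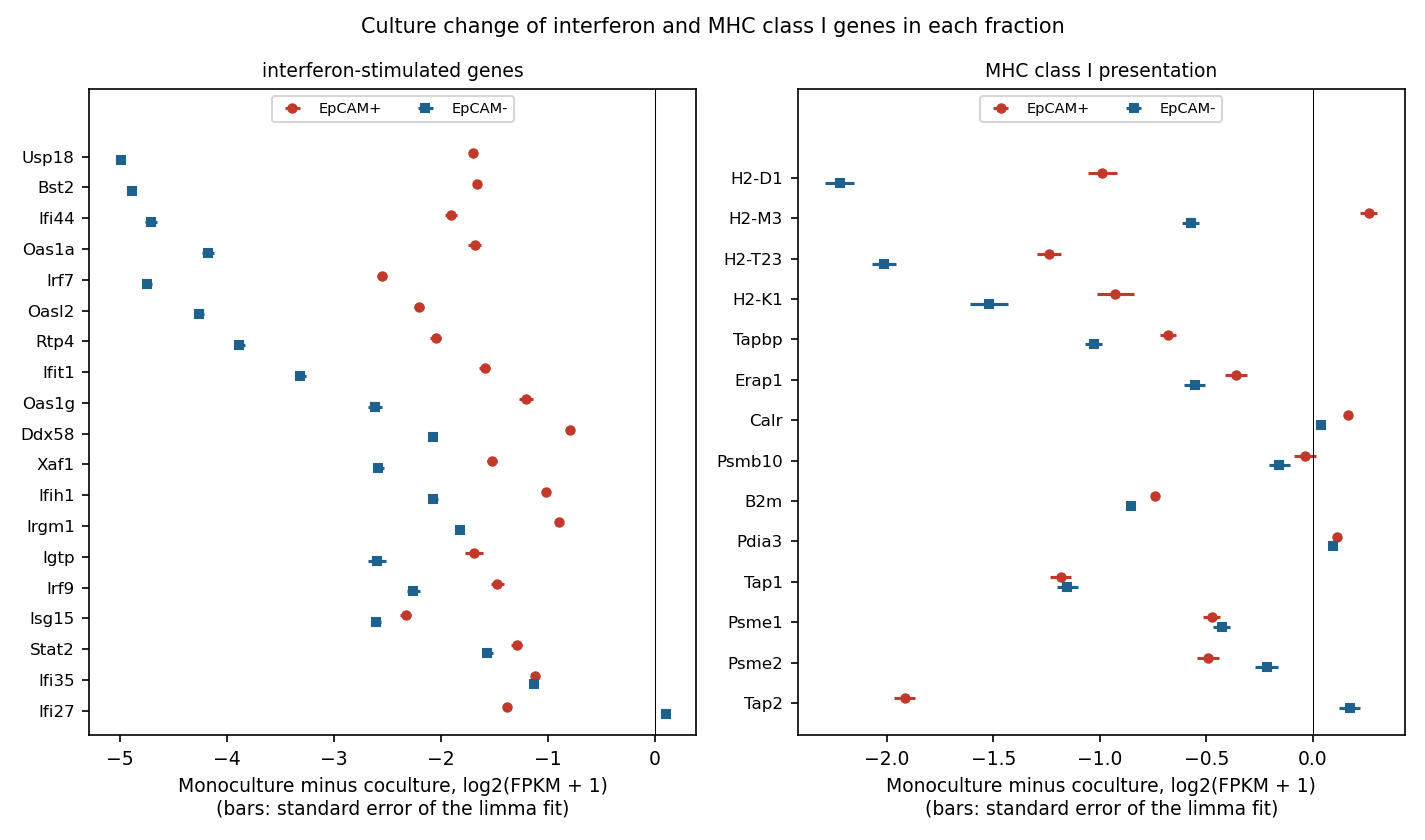
Culture change (monoculture minus coculture, log2(FPKM + 1)) with standard errors for 19 of the 20 interferon-stimulated members (left) and 14 MHC class I presentation members (right), with red circles for EpCAM+ and blue squares for EpCAM-, ordered by interaction. The blue squares lie left of the red circles for most interferon genes and close to 0 for Ifi27 and Tap2.

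The promoters of interferon-stimulated members are shown because interferon signalling acts through a response element found in many of them. The element was searched as the letters GAAA, any 2 bases and again GAAA, on both strands, in the 250 bases before each start in RefSeq promoters of GRCm38.p6, the mm10 assembly. A symbol match was found for 16 of the 20 members, and 8 of the 16 (50%) held the letters. Of all genes with a promoter 3.46% held them, and of the 5764 members matched 2.95%. The median interaction was 1.17 in the 8 with the letters and 1.17 in the 8 without. The 150 bases before the start follow for 5 members, 5′ to 3′ on the strand of the gene, with matches on either strand in capitals, which may overlap. Bst2 and Oas1a had large interactions, Isg15 a small one, Ifit1, an inhibitor of viral translation, an interaction of 1.73, and Ifi44 no match in this window. Ifit1 was chosen after its values were seen.
Bst2, chr8:71537473-71537622, minus strand: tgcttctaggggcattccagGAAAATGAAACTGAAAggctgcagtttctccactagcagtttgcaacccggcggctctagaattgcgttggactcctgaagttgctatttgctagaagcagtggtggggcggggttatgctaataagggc
Oas1a, chr5:120907526-120907675, minus strand: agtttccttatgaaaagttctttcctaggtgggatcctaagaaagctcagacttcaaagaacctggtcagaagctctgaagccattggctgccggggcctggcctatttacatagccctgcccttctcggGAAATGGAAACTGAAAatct
Isg15, chr4:156200819-156200968, minus strand: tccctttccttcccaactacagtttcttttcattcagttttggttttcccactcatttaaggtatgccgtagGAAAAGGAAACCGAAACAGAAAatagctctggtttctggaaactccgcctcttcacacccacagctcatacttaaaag
Ifit1, chr19:34640739-34640888, plus strand: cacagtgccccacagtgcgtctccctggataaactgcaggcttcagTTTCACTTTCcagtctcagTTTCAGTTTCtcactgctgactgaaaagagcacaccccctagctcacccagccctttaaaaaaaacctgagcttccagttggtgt
Ifi44, chr3:151749911-151750060, minus strand: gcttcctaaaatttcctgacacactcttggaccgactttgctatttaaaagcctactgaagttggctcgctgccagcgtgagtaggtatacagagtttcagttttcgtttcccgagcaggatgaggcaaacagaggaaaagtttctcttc
Ifit1 holds the element on the other strand, where each part reads TTTC, and Bst2, Oas1a and Isg15 hold it in the direction of the gene. For the opposite members, the AP-1 letters TGANTCA were in 2 of 17 matched members that rose in EpCAM+ (11.8%). They were in 7.82% of all genes with a promoter and in 4.72% of the members matched. The antioxidant element letters TGACNNNGC were in 6 of 44 matched members that fell in EpCAM+ (13.6%), beside 11.5% and 14.4%.

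Genes of antigen presentation by MHC class I, which interferons also raise, mostly fell in each fraction, and their interactions differed. Of 14 members 10 fell in EpCAM+ and 11 in EpCAM-, and the interaction was positive in 8 and negative in 2. Over all genes tested 34.9% fell in EpCAM+ and 30.3% fell in EpCAM-. The interaction was positive in 26.0% and negative in 39.2% of them. H2-D1, a classical class I heavy chain, was at 118 and 127 FPKM in coculture EpCAM+, 60.7 and 62.1 in monoculture EpCAM+, 62.2 and 56.5 in coculture EpCAM- and 12.8 and 11.2 in monoculture EpCAM-. It fell in both, with changes of -0.99 and -2.22, an interaction of 1.23 (SE 0.096, adjusted p 1.84e-05). H2-T23, the heavy chain Qa-1, had the same order of groups, with an interaction of 0.78 (SE 0.081). The sequences of class I genes are close copies of each other, so single values are uncertain. Tap1 and Tap2 encode the 2 chains of the transporter that loads peptides onto class I, and they differed. Tap1 was at 12.8 and 13 FPKM in coculture EpCAM+, 5.01 and 5.23 in monoculture EpCAM+, 7.37 and 6.86 in coculture EpCAM- and 2.73 and 2.57 in monoculture EpCAM-. Tap2 was at 29.8 and 30.6 FPKM in coculture EpCAM+, 7.45 and 7.10 in monoculture EpCAM+, 6.38 and 5.82 in coculture EpCAM- and 7.17 and 6.84 in monoculture EpCAM-. Tap1 fell in both fractions, with changes of -1.18 and -1.15 and an interaction of -0.03 (SE 0.069). Tap2 fell by 1.92 on the log2 scale in EpCAM+, with a change of 0.17 (SE 0.049) in EpCAM- and an interaction of -2.09 (SE 0.070, adjusted p 2.82e-07). H2-M3, which presents formylated peptides, was an opposite case below the size set for that class, with 0.26 in EpCAM+ and -0.57 in EpCAM-.

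Unequal culture changes of the same sign, with an interaction of at least 2-fold, were found in 53 members (0.715%, beside 0.816% of all genes tested), of which 39 fell and 14 rose in monoculture in both fractions. Among the 39 the interaction was positive in 35, and 12 of the 39 belonged to the interferon list. With 5 FPKM or more in all 4 groups, 12 members of any kind, in place of the 39, were unequal and fell in both. Ctsc, the protease cathepsin C, which is on no list, was at 60.3 and 60.1 FPKM in coculture EpCAM+, 45.3 and 46.5 in monoculture EpCAM+, 18.9 and 19 in coculture EpCAM- and 1.05 and 0.976 in monoculture EpCAM-. It was nearly lost in monoculture EpCAM- alone, with an interaction of 2.93 (SE 0.044, adjusted p 5.71e-09). Spp1, osteopontin, was at 584 and 585 FPKM in coculture EpCAM+, 443 and 453 in monoculture EpCAM+, 83.9 and 83.4 in coculture EpCAM- and 13 and 13.6 in monoculture EpCAM-. It followed Ctsc, with changes of -0.38 in EpCAM+ and -2.56 in EpCAM- and an interaction of 2.18 (SE 0.034).

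Of the 14 that rose in both fractions, 11 rose more in EpCAM-, and the 5 largest differences were those of Timp3, Timp2, F3, Adamts1 and Adamts5. Timp3, a matrix-bound inhibitor of metalloproteinases, was at 174 and 176 FPKM in coculture EpCAM+, 214 and 213 in monoculture EpCAM+, 9.27 and 9.85 in coculture EpCAM- and 69.0 and 71.8 in monoculture EpCAM-. Timp2, a soluble one that also takes part in the activation of MMP2, was at 82.2 and 79.5 FPKM in coculture EpCAM+, 109.7 and 106 in monoculture EpCAM+, 116 and 114 in coculture EpCAM- and 431 and 434 in monoculture EpCAM-. Timp3 was higher in EpCAM+ in both cultures while Timp2 was higher in EpCAM-, and in both genes the rise in EpCAM- was the larger, 2.76 and 1.90 against 0.29 and 0.41. Their interactions were -2.47 (SE 0.044, adjusted p 1.32e-08) and -1.49 (SE 0.034, adjusted p 5.57e-08). The proteoglycan-cleaving proteases Adamts1 and Adamts5 rose by 1.71 and 1.77 in EpCAM- and by 0.38 and 0.52 in EpCAM+. Adamts2, which trims procollagen, was at 14.6 and 14.3 FPKM in coculture EpCAM+, 15.6 and 15.1 in monoculture EpCAM+, 17.1 and 16.9 in coculture EpCAM- and 49.4 and 50.2 in monoculture EpCAM-, a rise of 1.5 in EpCAM- with a change of 0.08 in EpCAM+ that did not pass the test (adjusted p 0.0571). F3, tissue factor, the starter of blood clotting, rose from 28.4 and 28.2 to 91.5 and 90.2 FPKM in EpCAM- and from 18.9 and 18.6 to 21.1 and 21 FPKM in EpCAM+. Over the list of metalloproteinases and TIMPs, 10 of 12 members rose in EpCAM-, 6 rose in EpCAM+, and the interaction was negative in 10 and positive in 2; 32.4% of all genes tested rose in EpCAM- and 16.4% in EpCAM+.

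Members that moved at least 2-fold in EpCAM+ and by under 0.25 in EpCAM-, a change that may still have passed the test, numbered 19 (0.256%, beside 0.849% of all genes tested). The 7 that rose included Ctgf and Thbs1, targets of YAP and TGF-beta. Akap12, a scaffold of protein kinases A and C, was at 33.3 and 32.6 FPKM in coculture EpCAM+, 102 and 103 in monoculture EpCAM+, 84.6 and 85.5 in coculture EpCAM- and 88.9 and 93.8 in monoculture EpCAM-. Ddah1, which degrades inhibitors of nitric oxide synthase, was at 4.11 and 4.41 FPKM in coculture EpCAM+, 13.4 and 13.2 in monoculture EpCAM+, 23.4 and 22.9 in coculture EpCAM- and 23.4 and 23.4 in monoculture EpCAM-. In both, coculture EpCAM+ was the lowest group, and the interactions were 1.51 (SE 0.041) and 1.43 (SE 0.052). Ctgf, a matricellular growth factor and textbook YAP target, was at 120.4 and 121 FPKM in coculture EpCAM+, 266 and 267 in monoculture EpCAM+, 708 and 709 in coculture EpCAM- and 645 and 629.6 in monoculture EpCAM-. Thbs1, thrombospondin 1, which activates latent TGF-beta, was at 218 and 216 FPKM in coculture EpCAM+, 536 and 541 in monoculture EpCAM+, 1079 and 1074 in coculture EpCAM- and 1192 and 1218 in monoculture EpCAM-. Both were higher in EpCAM- throughout, and EpCAM+ drew nearer in monoculture, with interactions of 1.28 (SE 0.025, adjusted p 2.33e-08) and 1.14 (SE 0.025, adjusted p 3.83e-08). Slc12a4, a potassium chloride cotransporter, rose from 3.98 and 3.97 to 11.2 and 11.6 FPKM in EpCAM+, with an interaction of 1.18 (SE 0.051). On the list of TGF-beta and YAP targets 17 of 24 members rose and 3 fell in EpCAM+, while in EpCAM- 10 rose and 12 fell. The interaction was positive in 15 and negative in 6. Over all genes tested 16.4% rose and 34.9% fell in EpCAM+, and 32.4% rose and 30.3% fell in EpCAM-. The interaction was positive in 26.0% and negative in 39.2% of them.

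The other 12 fell in EpCAM+, and in EpCAM- 3 of them fell and 3 rose by under 0.25. Of the 12, 6 were genes whose coculture EpCAM+ level EpCAM- cells at the marker share would give to 50% or more: Col1a1, Col1a2, Col5a2, Serpinf1, Fbln2 and Nid1, which are taken up at the end. Tap2, described above, Gsn and Trib3 were not of this kind. Gsn, the actin-severing protein gelsolin, was at 41.4 and 40.2 FPKM in coculture EpCAM+, 17.6 and 17.4 in monoculture EpCAM+, 245 and 240.4 in coculture EpCAM- and 229 and 229 in monoculture EpCAM-, with an interaction of -1.10 (SE 0.031, adjusted p 1.5e-07). Trib3, a pseudokinase induced by the ATF4 stress pathway, was at 27.3 and 27.7 FPKM in coculture EpCAM+, 12 and 11.1 in monoculture EpCAM+, 38.0 and 36.8 in coculture EpCAM- and 37.7 and 36.0 in monoculture EpCAM-, with an interaction of -1.16 (SE 0.058, adjusted p 1.76e-06). Monoculture EpCAM+ was the lowest group in both genes. Ddit3 and Gdf15, other targets of this pathway, also fell in EpCAM+, with changes of -0.99 and -0.98 and interactions of -1.35 (SE 0.084) and -1.21 (SE 0.14). Of 31 ATF4 targets 27 fell in EpCAM+ and 21 fell in EpCAM-, beside 34.9% and 30.3% of all genes tested. The interaction was positive in 9 and negative in 15, beside 26.0% and 39.2% of all genes tested, with a median whose sign changed with the scaling.

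Members that moved at least 2-fold in EpCAM- and by under 0.25 in EpCAM+ were more numerous, 61 (0.823%, beside 2.08% of all genes tested), of which 37 rose and 24 fell in monoculture. Pcsk6, a proprotein convertase that activates secreted precursors, was at 19.1 and 19.1 FPKM in coculture EpCAM+, 16.2 and 15.9 in monoculture EpCAM+, 1.17 and 1.24 in coculture EpCAM- and 32.7 and 32.6 in monoculture EpCAM-. S100a4, a calcium-binding protein tied to cell motility, was at 6.90 and 8.07 FPKM in coculture EpCAM+, 5.95 and 7.40 in monoculture EpCAM+, 130.3 and 131 in coculture EpCAM- and 1011 and 979 in monoculture EpCAM-. Coculture EpCAM- was the low group in Pcsk6, whereas in S100a4 both EpCAM- groups lay above EpCAM+ and the monoculture one was the higher. Their rises in EpCAM- were 3.93 (SE 0.033) and 2.92 (SE 0.091), and their interactions -4.17 (SE 0.047, adjusted p 1.75e-09) and -3.07 (SE 0.13, adjusted p 7.53e-07). Id4, a helix-loop-helix inhibitor of the mammary epithelium, was at 22.4 and 21.1 FPKM in coculture EpCAM+, 25.8 and 23.4 in monoculture EpCAM+, 0.852 and 0.946 in coculture EpCAM- and 12 and 10.9 in monoculture EpCAM-. Smad6, an inhibitor of BMP signalling, was at 6.35 and 6.04 FPKM in coculture EpCAM+, 5.25 and 5.03 in monoculture EpCAM+, 10.5 and 9.39 in coculture EpCAM- and 44.6 and 43.1 in monoculture EpCAM-. Both rose in EpCAM-, Id4 from under 1 FPKM, with interactions of -2.54 (SE 0.091) and -2.26 (SE 0.077). The selenium carrier Sepp1 and the glutathione S-transferase Gsta4 rose by 2.53 and 2.30 in EpCAM- and changed by -0.17 and -0.19 in EpCAM+.

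The 24 that fell in EpCAM- included surface proteins and a stem cell marker. Lgr6, a receptor for R-spondins that marks epithelial stem cells, was at 39.9 and 39.2 FPKM in coculture EpCAM+, 35.2 and 34.5 in monoculture EpCAM+, 19.1 and 18.4 in coculture EpCAM- and 1.03 and 1.39 in monoculture EpCAM-. Alcam, the adhesion protein CD166, was at 37.8 and 38.6 FPKM in coculture EpCAM+, 35.2 and 37.2 in monoculture EpCAM+, 5.71 and 5.78 in coculture EpCAM- and 0.335 and 0.407 in monoculture EpCAM-. In both, monoculture EpCAM- was far below the other groups, with changes of -3.16 and -2.30 in EpCAM- and interactions of 2.99 (SE 0.097, adjusted p 2.59e-07) and 2.22 (SE 0.061, adjusted p 1.27e-07); a pseudocount of 0.1 gave 3.56 for Alcam. Col5a3, a minor fibrillar collagen chain, was at 12.8 and 13.3 FPKM in coculture EpCAM+, 13.4 and 13.3 in monoculture EpCAM+, 59.2 and 57.9 in coculture EpCAM- and 14.2 and 13.7 in monoculture EpCAM-. Hk2, hexokinase 2, which begins glycolysis, was at 9.43 and 9.15 FPKM in coculture EpCAM+, 9.95 and 10.5 in monoculture EpCAM+, 46.7 and 46.1 in coculture EpCAM- and 15.0 and 15.2 in monoculture EpCAM-. For these EpCAM- was the higher fraction in both cultures, and the fall brought it toward EpCAM+. Pdgfc, a growth factor for mesenchymal cells, and Cdh10, a type II cadherin, fell in EpCAM-, with changes of -1.63 and -2.09, and changed by 0.23 and 0.25 in EpCAM+. Tgfb1, the TGF-beta 1 ligand and another of the 24, was at 50.4 and 51.7 FPKM in coculture EpCAM+, 45.7 and 48.3 in monoculture EpCAM+, 69.3 and 69.7 in coculture EpCAM- and 27.9 and 28.2 in monoculture EpCAM-, with an interaction of 1.16 (SE 0.043, adjusted p 4.27e-07).

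Changes of equal size were rare among large ones. Only 7 members moved at least 2-fold in both fractions in the same direction with an interaction under 0.25 in size (0.0944%, beside 0.0833% of all genes tested), 2 upward and 5 downward. Cav1, caveolin 1, the coat protein of caveolae, was at 18.2 and 18.3 FPKM in coculture EpCAM+, 38.3 and 39.9 in monoculture EpCAM+, 54.3 and 56.8 in coculture EpCAM- and 115 and 115 in monoculture EpCAM-. It rose by 1.06 (SE 0.030) and 1.04 (SE 0.030), an interaction of 0.02 (SE 0.043). With quantile normalization it was 0.13 and passed the test (adjusted p 0.0239). Fst, follistatin, which binds activins, was at 3.70 and 3.73 FPKM in coculture EpCAM+, 12.3 and 11.5 in monoculture EpCAM+, 7.55 and 5.23 in coculture EpCAM- and 22.1 and 22.7 in monoculture EpCAM-. The coculture EpCAM- libraries of Fst lay apart, and without coculture EpCAM- replicate 1 its interaction was -0.45 with an adjusted p of 0.00148. With that library left out only 1 member was shared upward, as also without monoculture EpCAM+ replicate 1, and without monoculture EpCAM+ replicate 2 the downward count was 8. Of the 5 that fell, Tap1, Ifi35, Ifitm3 and Ube2l6 are interferon-responsive; Ifi35 had an interaction of 0.01 (SE 0.051) and Ube2l6 of 0.14 (SE 0.10).

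Gene lists described the smaller changes. Over all genes tested 16.4% rose and 34.9% fell in EpCAM+, 32.4% rose and 30.3% fell in EpCAM-, and the interaction was positive in 26.0% and negative in 39.2%. Of the 37 genes of the G2/M and mitosis list, all of them members, 21 fell and 2 rose in EpCAM+ while 26 rose and 3 fell in EpCAM-, and the interaction was negative in 25 and positive in 2 . Scaled by the median of ratios, 12 fell and 4 rose in EpCAM+. The signs of the medians held under every scaling tried, and the medians were -0.10 and 0.18, well under 2-fold. Nusap1, a spindle protein, was at 13.9 and 14.9 FPKM in coculture EpCAM+, 11.4 and 10.7 in monoculture EpCAM+, 8.26 and 7.21 in coculture EpCAM- and 13.9 and 13.9 in monoculture EpCAM-, an interaction of -1.13 (SE 0.090). Prc1, which bundles microtubules in anaphase, changed by -0.24 and 0.43, and Aurkb, a mitotic kinase, by -0.21 and 0.42. Mki67, the proliferation marker, departed from its list and fell in both fractions, with changes of -0.37 and -0.41 and an interaction of 0.04 (SE 0.068). Without monoculture EpCAM- replicate 2 the Mki67 interaction was 0.12 with an adjusted p of 0.0247. Of the 34 members for G1/S and DNA replication 19 fell in EpCAM+ and 18 fell in EpCAM-, with a median interaction of 0.01, and the count of 19 was 6 when scaled by the median of ratios. On the list of D cyclins and CDK inhibitors, 5 of 11 members had a positive and 6 a negative interaction: Cdkn2c changed by -0.28 and 0.81, and Cdkn1b, p27, by -0.24 and 0.38.

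Antioxidant genes of the NRF2 pathway had the same pattern. Of 24 members 13 fell in EpCAM+ and 16 rose in EpCAM-, the interaction was negative in 17 and positive in 3, and the medians were -0.10 and 0.34. Beside these, 34.9% of all genes tested fell in EpCAM+, 32.4% rose in EpCAM- and 39.2% had a negative interaction. Fth1, the ferritin heavy chain that stores iron, was at 499 and 515 FPKM in coculture EpCAM+, 465 and 458 in monoculture EpCAM+, 714 and 707 in coculture EpCAM- and 1435 and 1386 in monoculture EpCAM-, an interaction of -1.12 (SE 0.033, adjusted p 1.76e-07). Hmox1, heme oxygenase 1, and Me1, malic enzyme, rose by 0.79 and 0.65 in EpCAM- and changed by -0.12 and -0.18 in EpCAM+. Of 13 members of the Wnt and Notch list 10 rose in EpCAM- and 6 fell in EpCAM+, and the interaction was negative in 10 and positive in 1. Lrp5, a Wnt coreceptor, was at 40.5 and 41.2 FPKM in coculture EpCAM+, 37.8 and 40.0 in monoculture EpCAM+, 8.02 and 8.24 in coculture EpCAM- and 17.4 and 17.9 in monoculture EpCAM-, an interaction of -1.10 (SE 0.049). For oxidative phosphorylation the interaction was negative in 17 of 34 members and positive in 3, near the 39.2% negative over all genes tested, with small medians of -0.07 in EpCAM+ and 0.05 in EpCAM-.

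Other lists had a positive median interaction, among them p53 targets, glycolysis and heat shock. Of 21 p53 targets 13 rose in EpCAM+ and 12 fell in EpCAM-, with a positive interaction in 11 and a negative one in 4. Over all genes tested 16.4% rose in EpCAM+, 30.3% fell in EpCAM- and 26.0% had a positive interaction. Trp53 itself changed by 0.24 and -0.37, an interaction of 0.60 (SE 0.030). Of 22 genes of glycolysis and hypoxia 14 fell in EpCAM- and 8 rose in EpCAM+; Vegfa, the endothelial growth factor, fell in both, with changes of -0.93 in EpCAM- and -0.15 in EpCAM+, whereas Ndrg1, a hypoxia-induced gene, rose by 1.26 in EpCAM-. Vegfc, the lymphatic growth factor, was at 32.7 and 33.2 FPKM in coculture EpCAM+, 43.8 and 43.2 in monoculture EpCAM+, 7.77 and 7.09 in coculture EpCAM- and 1.44 and 1.55 in monoculture EpCAM-, with changes of 0.39 and -1.75 and an interaction of 2.15 (SE 0.065). Heat shock genes had 12 positive and 6 negative interactions among 21 members: Hspd1, the mitochondrial chaperonin, had an interaction of 0.92 (SE 0.023), and Hspb1, a small heat shock protein, one of -1.18 (SE 0.047). Of 31 sterol synthesis genes 24 fell in EpCAM+ and 21 fell in EpCAM-, beside 34.9% and 30.3% of all genes tested, and the sign of their median interaction changed with the scaling. Scd1, the stearoyl desaturase, had changes of -1.33 in EpCAM+ and -0.67 in EpCAM-. Of 32 ribosomal protein genes 21 fell in EpCAM- and 7 in EpCAM+, with medians of -0.10 and -0.02, the interaction was positive in 15 and negative in 1, and the sign of the EpCAM+ median changed with the scaling. The count of 7 was 1 with the median of ratios and 19 with quantile normalization.

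**Figure D4:**
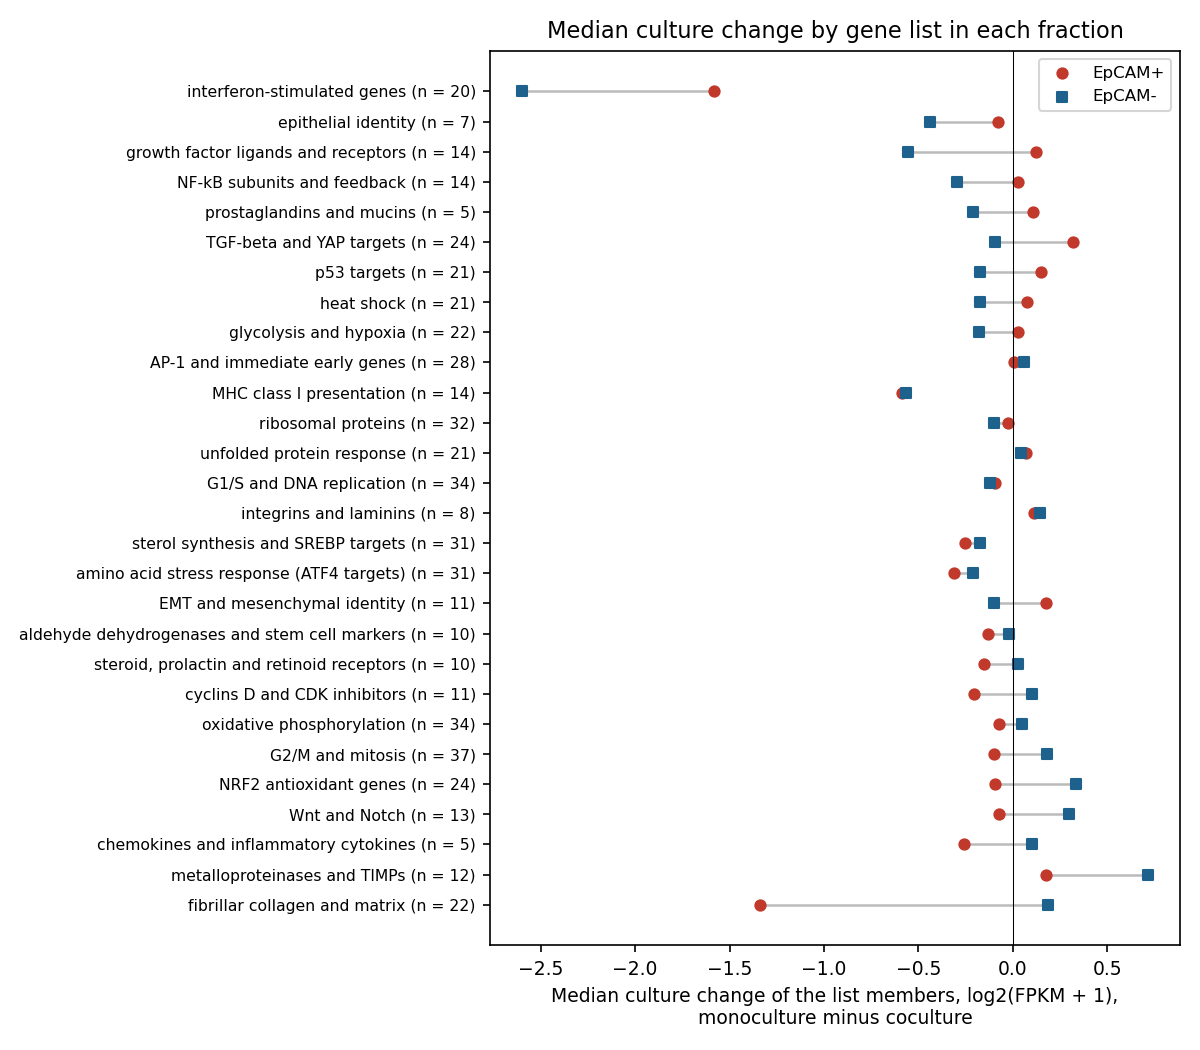
Median culture change (log2(FPKM + 1), monoculture minus coculture) of each gene list with 5 or more members, red circles for EpCAM+ and blue squares for EpCAM-, ordered by the median interaction. The interferon list lies far left in both fractions, while the lists for G2/M, NRF2 and Wnt and Notch have EpCAM+ left of 0 and EpCAM- right of 0.

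The remaining lists are read against the same shares of all genes tested. Of 14 growth factor ligands and receptors 8 fell and 4 rose in EpCAM-, 7 rose and 4 fell in EpCAM+, and the median interaction was 0.45. Of 14 NF-kB subunits and feedback genes the interaction was positive in 8 and negative in 3; Nfkbiz, a nuclear regulator of NF-kB, changed by -1.5 in EpCAM- and by 0.04 in EpCAM+, where its cultures overlapped. Only 5 of 32 chemokines and cytokines were members. Cx3cl1, the membrane-bound chemokine fractalkine, was at 17.8 and 16.8 FPKM in coculture EpCAM+, 14.5 and 14.2 in monoculture EpCAM+, 3.05 and 2.71 in coculture EpCAM- and 11.1 and 11.6 in monoculture EpCAM-, an interaction of -1.93 (SE 0.075) opposite in sign to that of Spp1. Ccl2, which attracts monocytes, had changes of -0.96 and -0.20, and Csf1, the macrophage growth factor, of 0.08 and 1.28. Of 5 members for prostaglandins and mucins the interaction was positive in 3 and negative in 0; Pla2g4a, the phospholipase that frees arachidonic acid for Ptgs2, changed by 0.18 and -0.11, alike in sign with Ptgs2. All 4 S100 members rose in EpCAM-, and the interaction was negative in 3 of them and positive in 1.

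The unfolded protein response, with 21 members, had 8 positive and 7 negative interactions and a median of 0.02. The 28 AP-1 and immediate early genes were divided, 15 positive and 11 negative, with 5 opposite members. Of 10 steroid, prolactin and retinoid receptors the interaction was positive in 3 and negative in 4, and of 10 aldehyde dehydrogenases and stem cell markers in 4 and 4; the sign of both medians changed with the scaling. Abcg2, a drug efflux pump used as a stem cell marker, changed by 1.26 and 0.41. The 11 members for mesenchymal identity gave 4 and 5, and the 8 integrins and laminins gave 3 and 3. Itga5, the fibronectin receptor chain, had an interaction of 0.76 (SE 0.034) as deposited and of 1.53 with the marker share subtracted. Of 7 members for epithelial identity 6 had a positive interaction, and 6 fell in EpCAM-. The 3 imprinted growth genes gave 1 and 1, and no gene of the acute phase list was a member.

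Of genes used to name cell types, Vim, Cd44 and Cd24a had interactions under 1 in size. Those of the mesenchymal markers Acta2 and Col1a1 were larger, at -3.2 and -3.15 as deposited. Vim, the mesenchymal filament vimentin, was at 907 and 914 FPKM in coculture EpCAM+, 1097 and 1095 in monoculture EpCAM+, 3264 and 3262 in coculture EpCAM- and 2664 and 2591 in monoculture EpCAM-. It rose by 0.27 in EpCAM+ and fell by 0.31 on the log2 scale in EpCAM-, an interaction of 0.58 (SE 0.025), or 0.33 with quantile normalization. Cd44, the hyaluronan receptor used as a stem cell marker, was at 88.9 and 88.2 FPKM in coculture EpCAM+, 119.6 and 120.1 in monoculture EpCAM+, 56.6 and 55.9 in coculture EpCAM- and 42.9 and 45.7 in monoculture EpCAM-, with changes of 0.43 and -0.34 and an interaction of 0.77 (SE 0.042). Cd24a, its usual counterpart on luminal cells, was at 438 and 436 FPKM in coculture EpCAM+, 414 and 413 in monoculture EpCAM+, 32.6 and 32.9 in coculture EpCAM- and 20.4 and 19.5 in monoculture EpCAM-, an interaction of 0.61 (SE 0.035). Krt8 and Krt18, the luminal keratins, were members only through low levels in EpCAM-, 10.3 and 8.94 FPKM for Krt8 and 8.57 and 8.99 FPKM for Krt18 in coculture, and the EpCAM+ share could make up 50% or more of these. Epcam and Cdh1, E-cadherin, were not members, at means of 0.350 and 0.835 FPKM in coculture EpCAM-. Integrin beta 1, Itgb1, changed by 0.41 and -0.25, an interaction of 0.66 (SE 0.024).

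In 16 members EpCAM- cells at the marker share of 1.71% would give 50% or more of the coculture EpCAM+ level, among them Acta2, Bgn, Col1a1, Col1a2, Col3a1, Col5a2, Fbln2, Fstl1, Lox, Lrrc32, Nid1, Pcolce, Serpinf1, Sparc and Tagln. Several of them are themselves markers used for the share, so their parts are near 100% by construction. Col1a1, the main chain of collagen I, was at 72.5 and 71.8 FPKM in coculture EpCAM+, 5.94 and 6.05 in monoculture EpCAM+, 4223 and 4163 in coculture EpCAM- and 3573 and 3558 in monoculture EpCAM-. Col3a1, collagen III, was at 14.9 and 15.2 FPKM in coculture EpCAM+, 0.834 and 0.752 in monoculture EpCAM+, 938 and 943 in coculture EpCAM- and 595 and 593 in monoculture EpCAM-. In EpCAM- both were high in either culture, and in EpCAM+ they were low in coculture and lower in monoculture. The interactions as deposited were -3.15 (SE 0.025) for Col1a1 and -2.50 (SE 0.037) for Col3a1, and with the share subtracted they were 0.86 and 0.71, of the opposite sign. Both genes are markers that set the share, so subtraction removes nearly all their coculture EpCAM+ level by construction. The loss of their negative interaction is therefore no separate result. Fstl1, Lrrc32, Nid1, Pcolce and Sparc lay outside the naming rule and were chosen after their values were seen. Of the 16, 15 had a negative interaction as deposited, 14 of them at 2-fold, and 7 had a positive one with the share subtracted. Named opposite members outside the 16 kept their interaction: with the share subtracted, Hbegf stood at 2.57, Ptgs2 at 2.53, Fbln5 at -2.83 and Mgst1 at -2.72. The list of fibrillar collagen and matrix, with 22 members, a median of -1.34 in EpCAM+ and 0.18 in EpCAM-, and 15 negative and 5 positive interactions, holds 9 of the 16.

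**Figure D5:**
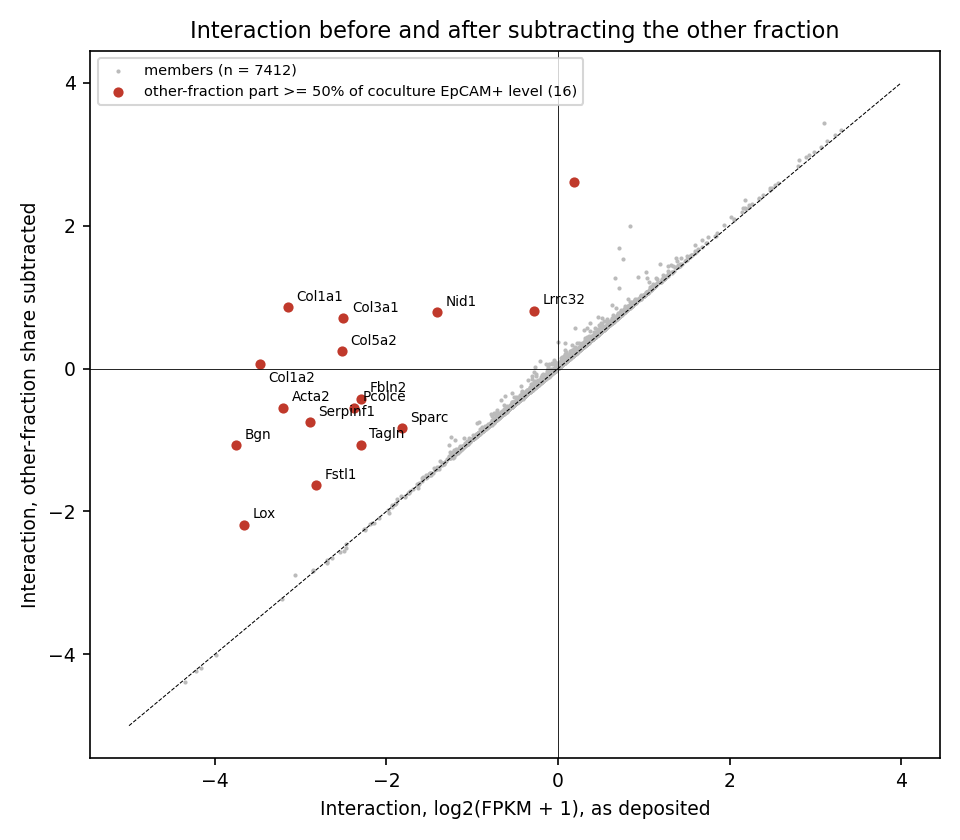
Interaction (log2(FPKM + 1)) of the 7412 members as deposited (horizontal axis) against the interaction with the other-fraction share subtracted (vertical axis), 1 point per gene, with a dashed line of equality. Nearly all members lie on the line, and the 16 genes in red lie above it, 7 of them above 0.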

How the data were processed

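RNA-seq was made from total RNA of 8 libraries, 4 groups of 2, per the labels. The authors deposited gene-level FPKM, a normalized value and not a count. The submitters' processing notes list HISAT2, HTSeq, edgeR, SAMtools, cutadapt, FastQC and the build mm10, with no versions used here, and the sources used here do not give the tool that wrote the FPKM or its strand setting. The 6547 genes at 0 in all libraries stayed out of the tests.

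From these values, log2(FPKM + 1) was fitted in limma 3.58.1 (R 4.3.3) with 1 mean per group, 3 contrasts (the culture change in each fraction and their difference) and a trended eBayes step. Tests covered the 12012 genes that reached 1 FPKM in 2 or more libraries, with Benjamini-Hochberg adjustment over all of them. A pseudocount of 1 understates changes of genes at low levels. With 2 libraries against 2, an exact permutation test of a single gene cannot reach 0.05, so no such test is given. On data simulated for the interaction over 12012 genes, of which 200 were changed, 72% of changes of 0.5 and 91% of changes of 1 were recovered, with 3.36% and 6.67% of calls false. In the real data a far larger part, 65.2% of genes tested, was called. The simulated spread came from the same 2 libraries per group. These rates therefore need not hold for the real data. Classes were opposite (both changes called, opposite sign, 0.5 or more each), unequal (same sign, interaction of 1 or more), 1-fraction (1 or more in a fraction, under 0.25 in the other) and shared (1 or more in both, interaction under 0.25).

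The share of the other fraction in a library was the median ratio of that fraction's markers to their mean in the other fraction of the same culture. Members and lists were chosen with earlier results of these data known. The text names, per class, the genes with the largest values (8 opposite in each direction, 5 or 6 in the others), up to 4 members per list with the largest called interaction, and key genes. Gene positions came from GENCODE M21, in which 7151 members matched 1 gene, and promoters from RefSeq. Alternatives were pseudocounts, filters, scalings, eBayes settings, member limits, share subtraction, a replicate block and each library left out. The values of 2 members are not reported here. Tables and figures used Python 3.11.15, pandas 2.3.3, NumPy 2.4.6 and matplotlib 3.10.9.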

Additional observations from a re-analysis of the deposited data

Results flagged for a closer look

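The culture change differed between the EpCAM+ and EpCAM- fractions by the test of the interaction, at 2-fold or more, in 158 members in the positive and 212 in the negative direction. That was 4.99% of members, beside 8.09% of all genes tested (2.43% positive and 5.66% negative). Quantile normalization moved the split to 179 and 158. The members named next had opposite changes of 2-fold or more in both fractions. A called interaction was part of the rule that chose them, so the test adds no support. They made up 0.135% of members, beside 0.133% of all genes tested. With 5 FPKM or more in all 4 groups, 3 that rose in EpCAM+ and 2 that fell in EpCAM+ remained. Those that rose in EpCAM+ and fell in EpCAM- were Fam132b with an interaction of 3.10, Hbegf with 2.53, Dusp5 with 2.39 and Rgs16 with 2.18. Those that fell in EpCAM+ and rose in EpCAM- were Col6a2 with -4.34, Srp54a with -4.22, Col6a1 with -3.99, Lox with -3.66, Fbln5 with -2.86 and Mgst1 with -2.70. For Lox, EpCAM- cells at the marker share would give 88.7% of the coculture EpCAM+ level. With that share subtracted the Lox interaction was -2.18. In all 10 the 2 libraries of every group lay on the same side of those of the other culture. The cultures did not overlap in either fraction in 5017 of all 7412 members. The coculture EpCAM- libraries of Srp54a, at 3.41 and 1.71 FPKM, lay furthest apart, and reads of its copies cannot be told apart here.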

How the results depend on the processing

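Of 161 named genes under all alternatives, 3039 comparisons left the interaction called or not called as before, 13 lost the call, 3 gained it and 4 reversed. Direction was compared only for interactions called in the main fit. The 4 that reversed were collagens after subtraction of the other fraction's share: Col1a1 at 0.86, Col3a1 at 0.71, Col5a2 at 0.24 and Col1a2 at 0.0708. Col1a1, Col1a2 and Col3a1 are among the markers that set this share, so subtraction removes nearly all their coculture EpCAM+ level by construction. Of the named opposite genes, Acta2 stayed opposite in 15, Pcolce in 16, Klf4 in 18 and Tagln in 18 of 19 alternative fits, and the others named as opposite did in all 19, as 54 of all 90 did.

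Counts moved most with the limit for members, which changes the genes counted. At 2 FPKM, 333 members had a negative 2-fold interaction and 96 were opposite and lower in EpCAM+. At 10 FPKM these were 131 and 34, with 25 unequal that fell, 24 that rose 2-fold in EpCAM- beside a change under 0.25 in EpCAM+, and 57 and 74 with a 2-fold rise and fall in EpCAM-. With 5 FPKM in all 4 groups, 103 and 137 had a 2-fold interaction, 19 and 30 were opposite (2 at 2-fold, lower in EpCAM+), 12 unequal that fell, 7 fell 2-fold in EpCAM+ beside a change under 0.25 in EpCAM-, 1 and 3 were shared, 27 fell 2-fold in EpCAM+, and 54 and 53 rose and fell 2-fold in EpCAM-. With a lower fraction at 0.2 or more of the other, 9 unequal members rose and 5 members fell in EpCAM+ in this way, as 5 did with the share subtracted. Quantile normalization left 33 opposite and lower in EpCAM+ and 1 shared and rising; the cause was not tested.

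Leaving out a library, where the other of its group is assumed to vary like the rest, gave 1 to 2 shared members that rose and 5 to 8 that fell. The replicate numbers do not pair the libraries: deviations of same-numbered libraries correlated between -0.15 and 0.06. With a replicate block, 158 and 211 members had a 2-fold interaction. Depth in reads is unknown, so no counting interval was given, and values under 1 FPKM limit folds.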

Other observations

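Small nucleolar RNAs, which guide the modification of ribosomal RNA, made up 18 members. In EpCAM+ 8 of them rose and 0 fell, and in EpCAM- 2 rose and 9 fell. Over all genes tested 16.4% rose and 34.9% fell in EpCAM+, and 32.4% rose and 30.3% fell in EpCAM-. The median change of the 18 was 0.50 in EpCAM+ and -0.33 in EpCAM-. Their median interaction was 0.85, beside a median of -0.02 over the 7063 protein-coding members. It was positive in 10 and negative in 1, beside 26.0% and 39.2% of all genes tested. These RNAs lie in introns of host genes, so their FPKM are uncertain. The 18 were chosen after their values were seen.

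Hp, Msln and Aldh1a3 changed in EpCAM+ but were no members because of their level in EpCAM-. Hp, the acute phase protein haptoglobin, had a change of -2.82 in EpCAM+, Msln, the surface protein mesothelin, of 1.86 and Aldh1a3, an enzyme of retinoic acid synthesis, of 1.01.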
